A study of Homo sapiens with 6 samples.

Results

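The genes described here encode PD-L1 (CD274), the proteins that stabilise it, and other surface ligands through which tumour cells restrain immune cells. There were 10 genes in the set: CD274 and its paralog PDCD1LG2 (PD-L2), the PD-L1 stabilisers CMTM6 and CMTM4, and CD276 (B7-H3), VSIR (VISTA), LGALS9 (galectin-9), TNFRSF14 (HVEM), CD47 and ICOSLG. They were chosen by symbol, selected on the differences between treated and control libraries in these same counts. Their differences between the groups are therefore a description, and no p-value is given for any member. Where a member is said to pass the threshold or to be called, this describes the values it was selected on and is no evidence of a difference. In the table of 16229 genes a row was found for 9 of the 10, PDCD1LG2 was not analysed here, and 8 passed the filter on low counts that left 12604 genes in the fit.

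The study measured RNA from colorectal cancer cells labelled MC38, of wild-type genotype, that were grown for 24 h with glycocholic acid (the GCA group) or without it (the CON group). Each group had 3 libraries, and the series title ties the experiment to bile acid signalling and immune checkpoint therapy. Glycocholic acid is a primary bile acid conjugated to glycine in the liver, and the labels give no concentration. MC38 is known as a mouse colon carcinoma line, whereas the labels give the organism as human and the build as hg38, and the table carries human gene symbols. The labels' extraction text speaks of heart samples, and the GCA libraries carry titles whose abbreviation the labels do not explain. The names GCA and CON follow the treatment label.

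PD-L1 on a tumour cell binds PD-1 on a T cell and dampens signalling from the T-cell receptor. Its gene is best known as a target of interferon-gamma, which acts through the JAK kinases, STAT proteins and the transcription factor IRF1. At the protein level, CMTM6 and CMTM4 keep PD-L1 from being degraded. VISTA and B7-H3 belong to the same wider B7 family, galectin-9 is a secreted lectin that binds TIM-3, and HVEM binds BTLA. CD47 binds SIRP-alpha on macrophages and acts as a "do not eat me" signal, and ICOSLG binds the costimulatory receptor ICOS.

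The promoter of CD274 is shown because this gene had by far the largest difference among the members, and that of VSIR because it had the largest difference among the members that were well counted in both groups. Both are RefSeq windows of GRCh38.p14, running 5′ to 3′ from 250 to 51 bases before the annotated start. The CD274 window is chr9:5450292-5450491 on the plus strand, and the VSIR window is chr10:71773571-71773770 on the minus strand. Capitals mark matches to the ISRE-like pattern (GAAA, any 2 bases, GAAA) or the GAS pattern TTCNNNGAA, the elements bound by interferon-activated IRF and STAT complexes, searched on both strands.
CD274: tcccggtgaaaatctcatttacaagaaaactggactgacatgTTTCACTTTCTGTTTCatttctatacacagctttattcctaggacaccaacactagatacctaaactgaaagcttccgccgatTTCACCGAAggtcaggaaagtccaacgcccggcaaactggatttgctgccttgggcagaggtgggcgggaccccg
VSIR: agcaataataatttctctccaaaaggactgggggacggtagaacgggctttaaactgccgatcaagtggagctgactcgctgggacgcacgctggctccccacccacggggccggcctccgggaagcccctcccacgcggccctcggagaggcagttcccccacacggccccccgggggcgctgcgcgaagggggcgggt

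The CD274 window held 2 overlapping ISRE-like matches on the minus strand, at 208 to 199 and 202 to 193 bases before the start, and 1 GAS match at 125 to 117 bases. The VSIR window held no match to either pattern, which says only that these letters are not in this window. Windows were found for 9 of the 10 members, 10 windows in all because CD276 has more than 1 annotated start, and CD274 was the only member with either pattern. Of all 35116 windows of the same length, 2.39% held the ISRE-like pattern and 5.48% the GAS pattern. The hexamer AGGTCA, the unit of nuclear receptor sites, was found in CD274, CD47 and LGALS9 and in 9.67% of all windows; in CD274 it begins on the last base of the GAS match. The GC box GGGCGG stood in 8 of the 10 member windows, against 35.0% of all. The AP-1 pattern TGANTCA and the E-box CACGTG, at 5.27% and 4.51% of all windows, matched no member window. These matches describe letters and show no binding.

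Each library held between 18057453 and 20531612 counts, so that 3 counts in a library (the lower limit of detection here) are worth 0.149 to 0.167 CPM, the unit of depth-scaled counts used below. A first principal component of the tested genes (65.7% of the variance) separated the groups, and the next (18.1%) separated the CON 1 library, at 34.5, from the other two CON libraries at -14.7 and -17.8, with GCA 1 at 8.10 against -5.78 and -4.33. The labels do not say whether the libraries stem from separate cultures; the p-values therefore reflect library-to-library spread alone, part of which may be technical. In the fit, 36.4% of the 12604 genes passed an adjusted p of 0.05, 18.3% higher and 18.1% lower with GCA, and in 48.5% the groups did not overlap, with GCA above CON in 24.1% and below in 24.3%. The listed markers of colorectal epithelium summed to 7918 to 10110 CPM over the CON libraries and 11132 to 12703 CPM over the GCA libraries. Most of this came from the keratins KRT8, KRT18 and KRT19, and 4 of the 8 tested rose. EPCAM, CDH1 and CDX2 had at least 549 counts in every library. Other markers of this list were low, KRT20 at 12 to 47 counts, VIL1 at 8 to 22, CEACAM5 at 2 to 16 and LGR5 at 0 to 1. Leukocyte markers summed to 21.9 to 31.2 CPM without and 17.9 to 29.5 CPM with GCA, with PTPRC, CD3E, MS4A1 and NKG7 at 3 counts or fewer in every library and most of the sum from CD68, a lysosomal protein, at 22.3 ± 3.29 and 18.3 ± 5.55 CPM. The 9 fibroblast and endothelium markers summed to 11.96 to 13.3 CPM without and 17.1 to 18.6 CPM with GCA, mostly COL1A1. COL1A1 and VWF were called higher (log2 0.44 and 1.43, adjusted p = 0.034 and 0.00847), while COL1A2, DCN and LUM were at 3 counts or fewer. VWF, at 7, 17 and 11 counts in CON 1 to 3, passed the low-count filter only through its GCA libraries. The 7 cardiomyocyte markers summed to 23.5 to 26.8 CPM without and 37.2 to 42.4 CPM with GCA. Most of this was TNNI3, called higher at 23.8 ± 1.88 and 38.1 ± 2.65 CPM (log2 0.68, adjusted p = 0.00136). MYL2 had 11 to 36 counts, TNNT2 had 0 to 1 in CON and 2 to 11 in GCA, and MYH6, MYH7, ACTC1 and NPPA were at 3 counts or fewer in every library. The part of these cell types in the differences below was not tested.

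CD274 encodes PD-L1. Its level was 1.504, 1.36 and 2.02 CPM in CON 1 to 3, from 27, 26 and 39 counts. In GCA 1 to 3 it was 209, 350 and 358 CPM, from 4214, 6873 and 6829 counts. All GCA libraries lay far above all CON libraries, GCA 1 was the lowest of the treated ones, and the lowest GCA value was 104 times the highest CON value. The group means were 1.63 ± 0.348 CPM for CON and 306 ± 83.6 CPM for GCA (SD, n = 3 each). The fitted log2 difference was 7.55 ± 0.26 (SE), a 187-fold higher level with GCA, which placed CD274 at rank 2 of the rises among all tested genes. Taken by replicate number, the ratio of GCA to CON was 139, 258 and 177. Leaving out each library in turn gave log2 differences between 7.42 and 7.78. The gene lies at chr9:5450542-5470554 (hg38).

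Per unit of gene length, CD274 went from a rank of 11361 among the 16229 genes in CON to 1002 in GCA. Its length-scaled level (FPKM) averaged 0.442 ± 0.107 for CON and 80.2 ± 22.1 for GCA. It made up 0.577% ± 0.137 of the FPKM summed over the members with a row in CON and 46.8% ± 7.72 in GCA. In CON it stood below CD276, CMTM6, CMTM4, VSIR and CD47, and in GCA above all of them. Because these are bulk samples, more cells expressing a gene and more RNA per cell cannot be told apart.

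**Figure D1:**
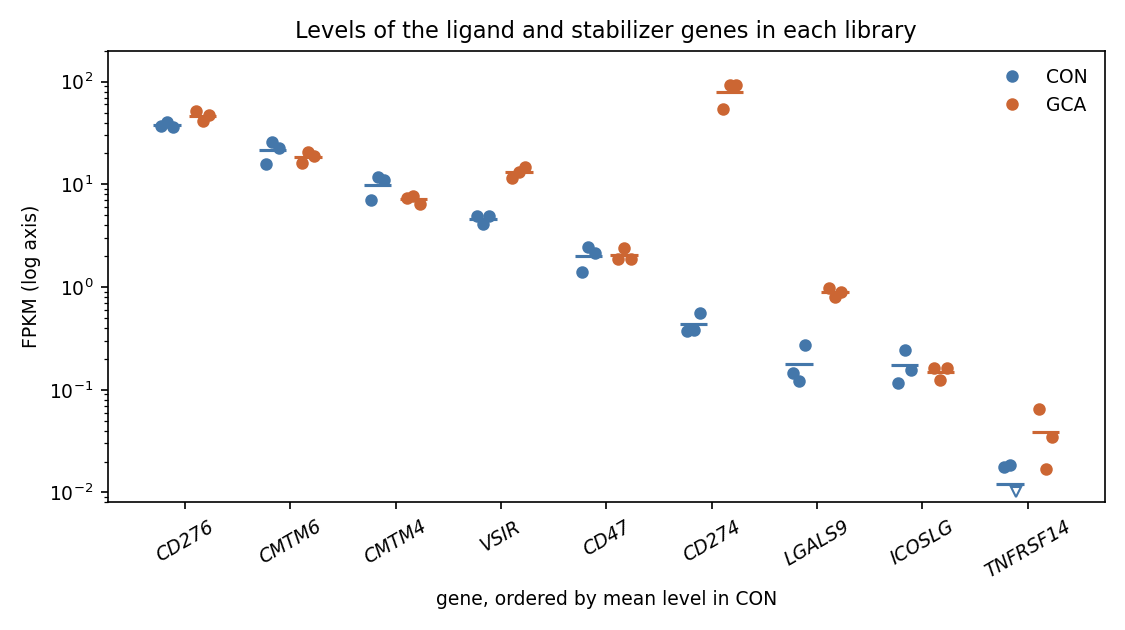
Levels of the 9 members with a row, as FPKM on a log axis, with 1 point per library for CON and GCA and bars at the group means. The CD274 points lie at 0.377 to 0.565 FPKM in CON and at 54.7 to 93.4 FPKM in GCA. CMTM6, CMTM4, CD47 and ICOSLG overlap between the groups.

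CMTM6, the main stabiliser of PD-L1 protein, did not pass the threshold. CON 1 to 3 were at 55.8, 80.8 and 71.7 CPM, and GCA 1 to 3 at 54.0, 69.7 and 64.4 CPM. The groups overlapped, and the library numbered 1 was the lowest in each. The means were 69.4 ± 12.7 and 62.7 ± 8.0 CPM, with a log2 difference of -0.15 ± 0.15 and a 95% interval from -0.47 to 0.18. Taken by replicate number, the ratio of GCA to CON was 0.968, 0.863 and 0.898, below 1 for each number. Without CON 1 the value was -0.29 and passed the threshold. CMTM6 (chr3:32481312-32502852) overlaps CMTM7 on the opposite strand, whose counts of 1825 to 2521 were of similar size. The sources used here do not state whether the counting used the strand.

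CMTM4, which can take over the role of CMTM6, had levels of 66.7, 96.9 and 93.3 CPM in the untreated libraries and of 66.3, 68.3 and 57.3 CPM in the treated ones. Here CON 2 and CON 3 stood above every GCA library and CON 1 lay among them. The means were 85.6 ± 16.5 and 64.0 ± 5.85 CPM, a log2 difference of -0.42 ± 0.15, or 1.34-fold lower with GCA. This call was lost on leaving out CON 2, CON 3 or any 1 of the GCA libraries, in both limma fits to FPKM, and with the GC and length offsets given below. The gene is at chr16:66598178-66696743. Relative to its stabiliser, CD274 had an FPKM ratio to CMTM6 of 0.0211 ± 0.0055 in CON and 4.25 ± 0.758 in GCA.

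VSIR encodes VISTA, a B7-family ligand that restrains T cells. CON 1 to 3 stood at 24.8, 18.1 and 22.0 CPM, and GCA 1 to 3 at 55.8, 62.1 and 71.1 CPM. Every GCA library exceeded every CON library. The means were 21.6 ± 3.36 and 63.0 ± 7.69 CPM, and the log2 difference was 1.54 ± 0.14, a 2.92-fold higher level. VSIR (chr10:71747556-71773520) lies opposite CDH23, which had 0 to 8 counts per library.

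LGALS9 encodes galectin-9. The CON libraries held 9, 7 and 16 counts of it and the GCA libraries 64, 51 and 56, that is 0.501, 0.365 and 0.829 CPM against 3.18, 2.60 and 2.93 CPM. The groups did not overlap, and LGALS9 passed the low-count filter only through its GCA libraries. The means were 0.565 ± 0.238 and 2.90 ± 0.291 CPM, with a log2 difference of 2.34 ± 0.34 and a 5.08-fold higher level. Even so, its treated level of 0.888 ± 0.0849 FPKM stayed far below that of CD274. LGALS9 (chr17:27631188-27649560) has the near-identical copies LGALS9B, with at most 2 counts in any library, and LGALS9C, which had no row. The LGALS9 level is therefore uncertain to the extent that reads are shared between copies. LGALS9 also overlaps the annotated gene AC015688.4 on the same strand, which had no row either.

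CD276 encodes B7-H3, an inhibitory ligand common on carcinoma cells. Without GCA its levels were 151, 144 and 131 CPM, and with GCA they were 199, 157 and 185 CPM. The groups did not overlap, but the lowest GCA value was close to the highest CON value. The means were 142 ± 9.90 and 180.4 ± 21.4 CPM, a log2 difference of 0.34 ± 0.13 or 1.27-fold. Leaving out CON 2, CON 3, GCA 1 or GCA 3, scaling by DESeq2 size factors or by unadjusted library size, dropping the low-count filter, or fitting FPKM with limma on either scale, ended the call. In CON CD276 was the most abundant member at 38.0 ± 2.08 FPKM, and in GCA, at 46.8 ± 5.32 FPKM, it was second to CD274. Their FPKM ratio, CD274 over CD276, was 0.0117 ± 0.0033 in CON and 1.76 ± 0.619 in GCA. CD276 lies at chr15:73683944-73714514.

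CD47 stood at 15.04, 23.6 and 21.0 CPM without GCA, and at 19.3, 24.6 and 19.2 CPM with it. The groups overlapped, with CON 1 the lowest library. The log2 difference was 0.08 ± 0.18, with a 95% interval from -0.30 to 0.46, and its sign changed on leaving out CON 1 or GCA 2. ICOSLG, which can costimulate as well as restrain T cells through ICOS, was low throughout. CON 1 to 3 gave 21, 41 and 27 counts and GCA 1 to 3 gave 31, 23 and 30, so the groups overlapped. Its log2 difference of -0.14 ± 0.32 had an interval from -0.83 to 0.55, so that at this depth neither a modest rise nor a modest fall was detectable. CD47 is at chr3:108043091-108091031 and ICOSLG at chr21:44216981-44240943.

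TNFRSF14 encodes HVEM, the ligand of BTLA. Counted 1, 1 and 0 times in CON 1 to 3 and 4, 1 and 2 times in GCA 1 to 3, it was at or near the limit of 3 counts and was not fitted, and no fold is given. It lies at chr1:2554234-2563829 and overlaps an annotated antisense RNA. PDCD1LG2 is annotated just beyond CD274, at chr9:5510531-5571282.

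Of the 8 fitted members, CD274, LGALS9, VSIR and CD276 were called higher and CMTM4 lower, 5 in all and including LGALS9, which entered the fit only through its GCA libraries, against 36.4% of all tested genes called in either direction. With the replicate number as a block, 41.0% of genes were called, 20.0% higher and 21.0% lower, and the number of members called was again 5. In 4 members, CD274, LGALS9, VSIR and CD276, all GCA libraries exceeded all CON libraries, whereas 48.5% of tested genes had non-overlapping groups in either direction. Since the members were chosen with this contrast known, nothing is read from either count. The members' median log2 difference was 0.21, that of all tested genes -0.04. Summed over the members, the level was 77.0 ± 9.06 FPKM in CON and 169 ± 21.6 FPKM in GCA; without CD274 the sums were 76.5 ± 9.04 and 88.9 ± 2.54 FPKM. By FPKM, members next to each other in the order of levels overlapped in CON only for LGALS9 and ICOSLG, and none did in GCA.

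**Figure D2:**
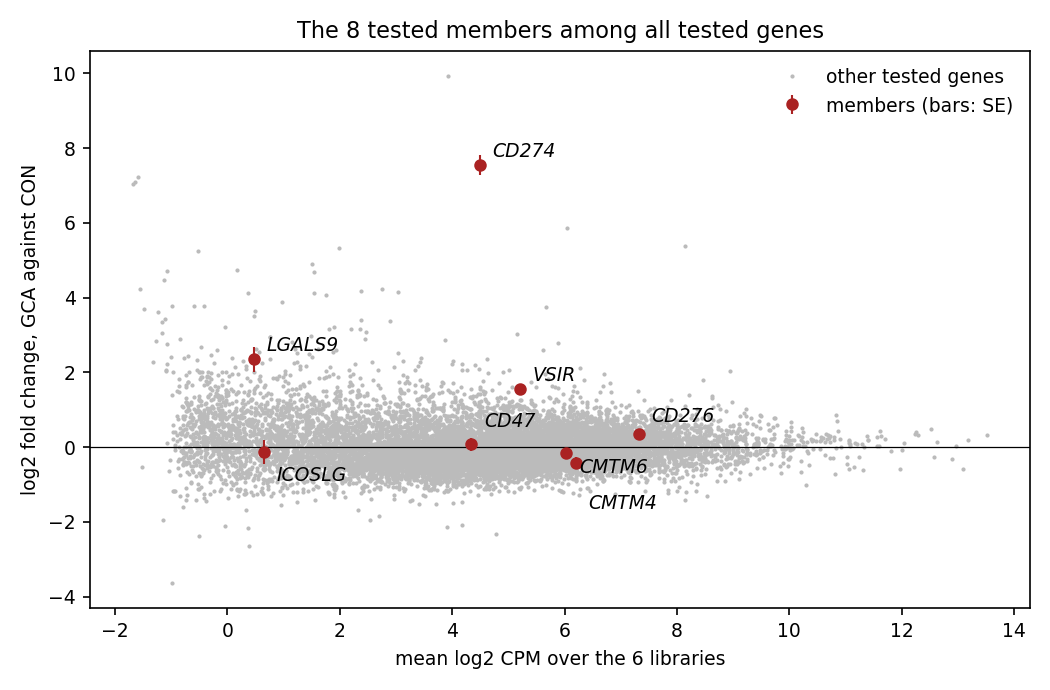
Log2 difference between GCA and CON against mean log2 CPM for the 12604 tested genes, with the 8 fitted members named. CD274 stands at 7.55 near the upper edge, LGALS9 at 2.34 and VSIR at 1.54, and the other members lie between -0.42 and 0.34.

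Across the tested genes, log2 differences ran with the GC content of the transcript (r = 0.48 across genes, which share the 6 libraries and are not replicates). CD276 and VSIR are GC-rich at 61.0% and 59.2%, LGALS9 is at 54.0%, and CD47, CMTM6 and CD274 are poorer at 38.4%, 39.4% and 40.9%. With offsets for GC content and length, 29.1% of genes were called, 12.1% higher and 17.1% lower. CD276 then stood at -0.06 and was not called, CMTM4 at -0.19 was not called, and CMTM6 stood at 0.14. CD47 stood at 0.43 and was called higher. VSIR kept a difference of 1.20. Which scale is nearer to the RNA content of the cells was not tested.

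Genes outside the members are given from lists of the pathway that were drawn up with earlier results of these data known. The counts and medians of these lists are therefore a description. Nothing is read from setting them beside those of all genes. The p-values of genes outside the members come from the edgeR quasi-likelihood fit, adjusted by Benjamini-Hochberg over all 12604 genes. A few genes are named although they fall outside the naming rule, because the count they belong to is small or to give an example. They are PTPN2, STAT2, STAT3, JUN, HIF1A, NFKB1, ADAM10, B3GNT3, QPCTL, FBXO22, COPS5, SPOP, CUL3, NECTIN2, NECTIN3, TNFSF9 and CD24, and they were chosen after their values were seen.

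Of 13 genes on the interferon-gamma axis, 6 rose and 1 fell. The median log2 difference was 0.32 against -0.04 for all genes, of which 36.4% were called, 18.3% higher and 18.1% lower. The number called in this list was 7, and 5 with unadjusted library size, in either limma fit or without GCA 3. It was 10 with offsets and block together, or without the libraries numbered 1. IRF1, the transcription factor that binds the CD274 promoter after interferon-gamma, measured 20.8, 21.4 and 22.5 CPM without GCA and 37.0, 35.7 and 41.7 CPM with it, with no overlap. Its log2 difference was 0.82 ± 0.12 (adjusted p = 0.00038). The part of IRF1 in the CD274 difference was not tested.

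The largest rises on this axis were in SOCS1, a feedback inhibitor of JAK kinases, from 7.29 ± 0.304 to 36.0 ± 9.49 CPM (2.30 ± 0.19, adjusted p = 6.01e-06), and in IRF9, the DNA-binding partner of STAT2, from 16.1 ± 4.80 to 67.3 ± 12.9 CPM (2.06 ± 0.20, adjusted p = 2.23e-05). NLRC5, the activator of MHC class I genes, rose by 1.05 ± 0.15 (adjusted p = 0.000265). STAT2 (0.48, adjusted p = 0.0169) and STAT3 (0.34, adjusted p = 0.0338) also rose, and both calls were lost with unadjusted library size, in both limma fits and without GCA 3, that of STAT3 also without CON 2, CON 3 or GCA 2. PTPN2, a phosphatase that switches off JAK and STAT proteins, fell by 0.63 (adjusted p = 0.00472). JAK2 was low, with 24, 59 and 39 counts for CON and 22, 39 and 28 for GCA, and did not pass (-0.51 ± 0.35, adjusted p = 0.272). The receptor chain IFNGR2 was at -0.28 (adjusted p = 0.0995), and past the threshold without CON 1 and, at -0.53, with the GC and length offsets. SOCS3 was at 0.32 (adjusted p = 0.193), at -0.09 with those offsets, and past the threshold without GCA 1.

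Of 11 other transcription regulators of CD274, 1 rose and 4 fell, a share near the 36.4% called over all genes, with a median of -0.03. With unadjusted library size, upper quartile scaling or either limma fit, none of them was called higher. FOSL1, an AP-1 subunit, fell by 0.61 (adjusted p = 0.00199). MYC fell from 563 ± 28.2 to 398 ± 31.7 CPM (-0.50, adjusted p = 0.00824), a call that was lost without GCA 2. HIF1A, the hypoxia factor, was at -0.41 (adjusted p = 0.0219), and NFKB1, an NF-kB subunit, at -0.34 (adjusted p = 0.0468). With the GC and length offsets, or on leaving out CON 2, CON 3, GCA 1 or GCA 3, both calls ended, and that of NFKB1 also without GCA 2, with DESeq2 or its size factors, unadjusted library size, no filter or either limma fit. JUN was the 1 that rose (0.73 ± 0.26, adjusted p = 0.0453), with 19.5 CPM in GCA 1 inside the CON range of 19.3 to 27.2 CPM and 44.4 and 48.9 CPM in the others. Its call was lost without CON 1, CON 2, GCA 2 or GCA 3, with unadjusted library size, upper quartile scaling or either limma fit, and with the GC and length offsets, at 0.46, or 0.38 with the block. RELA did not pass (0.20, adjusted p = 0.205), stood at -0.11 with the offsets, and was called higher without CON 1. The number called in this list was 5, and 2 without CON 2, GCA 2 or GCA 3.

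**Figure D3:**
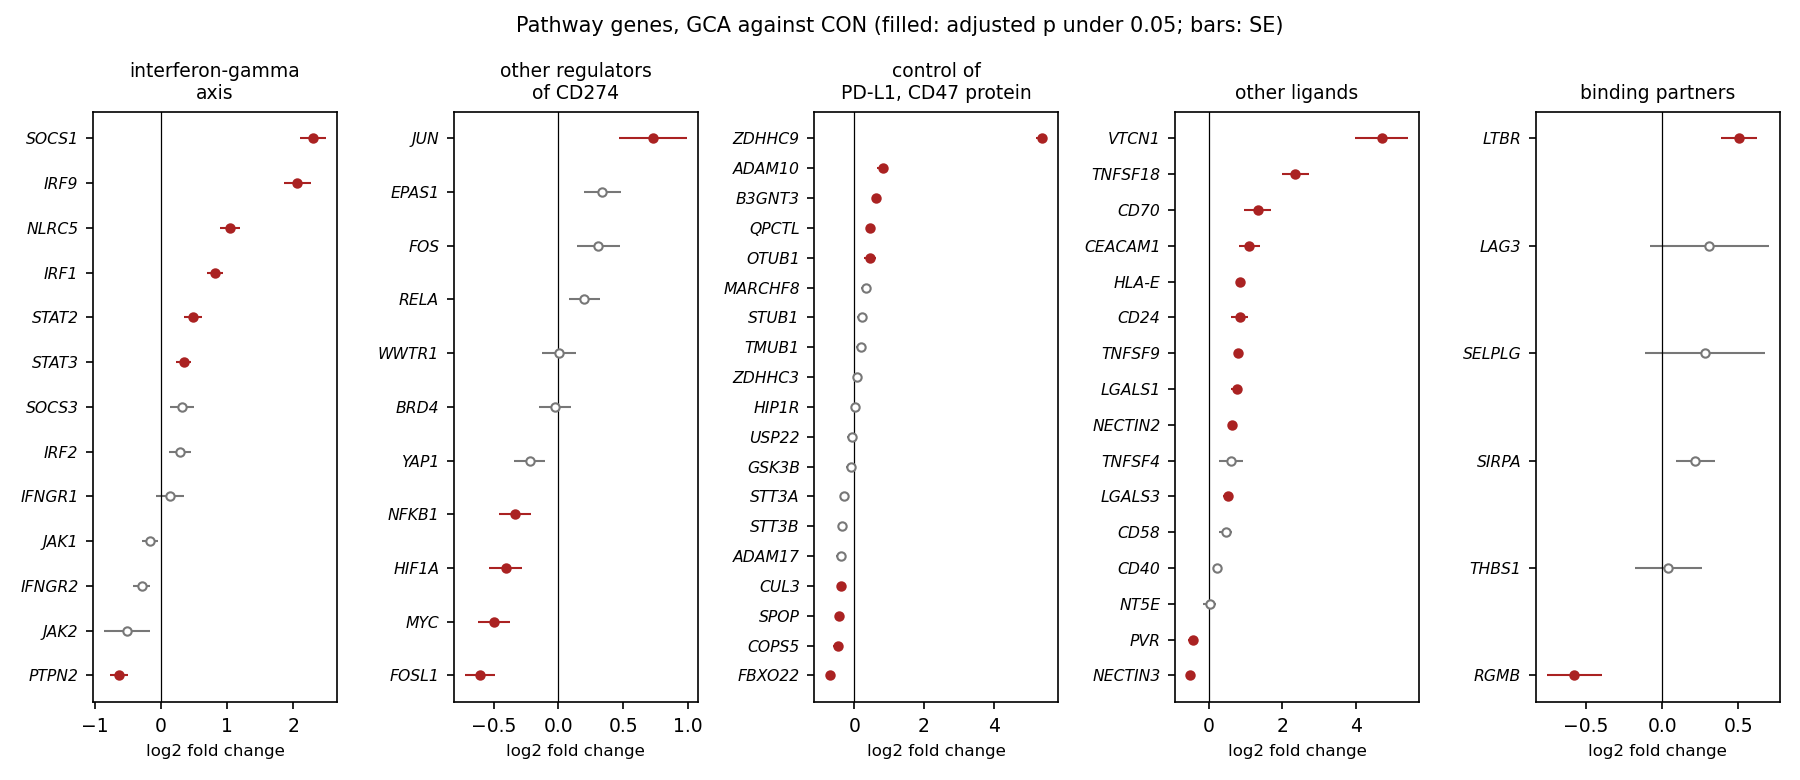
Log2 difference between GCA and CON for the fitted genes of the 5 pathway lists, with filled points for genes past an adjusted p of 0.05. ZDHHC9 at 5.38 and SOCS1 at 2.30 are the highest of their lists. All listed regulators of CD274 outside the interferon-gamma axis lie between -0.61 and 0.73.

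Among 19 genes that act on PD-L1 or CD47 protein, 5 rose and 4 fell, beside 36.4% called over all genes, with a median of 0.02 whose sign changed with the scaling. With the GC and length offsets 2 were called higher and 5 lower. ZDHHC9, a palmitoyltransferase reported to palmitoylate PD-L1, rose from 43.9 ± 2.62 to 1823 ± 215 CPM, 41.5-fold (5.38 ± 0.16, adjusted p = 3.98e-10). ADAM10, a sheddase of surface proteins, rose by 0.81 ± 0.17 (adjusted p = 0.00275). B3GNT3, a glycosyltransferase that acts on PD-L1, rose by 0.63 (adjusted p = 0.00299), and QPCTL, which modifies the SIRP-alpha binding site of CD47, by 0.46 (adjusted p = 0.00957). The last 2 were at 0.27 and 0.12, not past the threshold, with GC and length offsets, and the QPCTL call was also lost without CON 2 or GCA 3. OTUB1, a deubiquitinase, was at 0.45 (adjusted p = 0.0474), with CON 1 at 199 CPM against 132 and 123 CPM in the other two CON libraries. Its call was lost with DESeq2 size factors and without any 1 of the libraries other than CON 1, and its value was -0.0091 with the GC and length offsets.

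The 4 that fell were the ubiquitin ligase subunit FBXO22 (-0.70, adjusted p = 0.00117), the deubiquitinase COPS5 (-0.47, adjusted p = 0.0143), and SPOP (-0.43, adjusted p = 0.012) and CUL3 (-0.39, adjusted p = 0.0217), which act together in 1 ubiquitin ligase. The COPS5 call was lost without GCA 1 or GCA 3, that of SPOP without GCA 3, and that of CUL3 in both limma fits and without any 1 of the libraries other than CON 1. With the GC and length offsets SPOP stood at -0.25 and CUL3 at -0.06, both not past the threshold. STUB1, another ubiquitin ligase for PD-L1, did not pass (0.23, adjusted p = 0.222), and was called lower at -0.34 with the offsets and higher at 0.39 without CON 1. In this list 9 genes were called, 14 without CON 1 and 4 without GCA 3.

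Of 25 other ligands of lymphocyte receptors, 23 had a row and 16 were fitted, of which 10 rose and 2 fell, beside 18.3% of all genes called higher and 18.1% lower, with a median of 0.71. VTCN1, the B7-family ligand B7-H4, was counted 0, 1 and 2 times in CON 1 to 3 and 24, 50 and 17 times in GCA 1 to 3. The groups did not overlap (adjusted p = 0.000425), and the ratio of depth-scaled counts was 28.2, with a counting interval of 9.34 to 139. VTCN1 passed the low-count filter only through its GCA libraries, as did CD70, at 6, 9 and 13 counts in CON 1 to 3. Both are among the 10 that rose, and with such counts neither could have been called lower, so their calls are a description. TNFSF18, the ligand of GITR, rose from 0.705 ± 0.242 to 3.66 ± 1.35 CPM (2.36 ± 0.36, adjusted p = 0.000457). CD70, the ligand of CD27, was at 1.33 ± 0.37 (adjusted p = 0.0143) and CEACAM1, a ligand of TIM-3, at 1.11 ± 0.28 (adjusted p = 0.008). The call of CD70 was lost without CON 2 and with the GC and length offsets, and that of CEACAM1 without GCA 3.

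HLA-E, the ligand of the inhibitory receptor NKG2A, rose from 198 ± 10.7 to 358 ± 37.4 CPM (0.86 ± 0.13, adjusted p = 0.000337), a value that is uncertain to the extent that reads are shared among HLA genes. TNFSF9 (4-1BB ligand) rose by 0.80 (adjusted p = 0.000244) and NECTIN2, a ligand of TIGIT, by 0.65 (adjusted p = 0.000948). The galectin gene LGALS1 rose by 0.77 (adjusted p = 0.0025), but stood at 0.13, not past the threshold, with GC and length offsets. LGALS3 rose by 0.53 (adjusted p = 0.00936), and CD24, the ligand of Siglec-10, by 0.84 (adjusted p = 0.0109), and both calls were lost without GCA 2 or GCA 3. PVR, the other main ligand of TIGIT, fell from 128 ± 12.6 to 95.5 ± 8.34 CPM (-0.42, adjusted p = 0.0174), a call lost without CON 3, GCA 2 or GCA 3. NECTIN3 fell by 0.50 (adjusted p = 0.00458) and was at -0.18, not past the threshold, with the offsets. CD80, CD86, HHLA2 and TNFSF14 had at most 2 counts summed over either group. In this list 12 genes were called, between 8 (without GCA 3) and 13 (with the replicate block, among others) in the alternatives.

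The receptors that the members and the other listed ligands bind are mostly genes of immune cells. Of 16 listed binding partners, not all of which bind a member, 12 had a row and 6 were fitted. Of these 1 rose and 1 fell, a share near the 36.4% of all genes. PDCD1, which encodes PD-1, gave 4, 1 and 0 counts without GCA and 0, 3 and 1 with it and was not fitted. LTBR, the lymphotoxin beta receptor, which is not a receptor of a member, rose by 0.50 (adjusted p = 0.00582). RGMB, a binding partner of PD-L2, fell by 0.58 (adjusted p = 0.0252), a call lost without CON 2, GCA 1 or GCA 2, in both limma fits and, at -0.42, with the GC and length offsets. SIRPA, the receptor of CD47, did not pass (0.22, adjusted p = 0.20).

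Around CD274, 56 annotated genes start within 1 Mb of its start besides PDCD1LG2, 15 of these had a row and 12 were fitted, of which 2 were called, both lower, beside 36.4% called over all genes. Their median log2 difference was -0.33 and their range -0.78 to 0.31, against 7.55 for CD274. With the GC and length offsets the median was -0.072, with 1 called higher and 1 lower, and with offsets and block 2 were called higher and 2 lower. Starts and distances here are taken from the lowest coordinate of each gene, whatever its strand. By this measure the nearest fitted gene was PLGRKT, a plasminogen receptor, at 92.6 kb before CD274. PLGRKT spans chr9:5357971-5438377, so its other end lies nearer to CD274. Its levels were 20.5, 17.2 and 17.2 CPM for CON and 23.4, 21.7 and 22.9 CPM for GCA, and it did not pass (0.31 ± 0.14, adjusted p = 0.0901), but was called higher without CON 1 and, at 0.51, with the GC and length offsets. On the other side RIC1, 178.6 kb away, was at -0.44 (adjusted p = 0.0634). JAK2 lies 466.2 kb before CD274.

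The neighbours that fell were UHRF2, a chromatin-binding ubiquitin ligase 962.7 kb after CD274, from 11.9 ± 1.76 to 6.93 ± 0.981 CPM (-0.78 ± 0.18, adjusted p = 0.00553), and AK3, a mitochondrial kinase 741.0 kb before it (-0.38, adjusted p = 0.0348). The AK3 call was lost in both limma fits, with the GC and length offsets, at -0.074, and without any 1 of the libraries other than CON 1. With the replicate number as a block 4 neighbours were called lower, with RIC1 at -0.44 (adjusted p = 0.0285) and RANBP6 at -0.48 (adjusted p = 0.0475) added. Without CON 1, 6 were called, 1 of them higher, and without any other library 1 was called. The fitted neighbours SLC1A1, PLPP6, CDC37L1, RCL1, ERMP1, KIAA2026 and RANBP6 lay between -0.49 and 0.24 and did not pass.

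**Figure D4:**
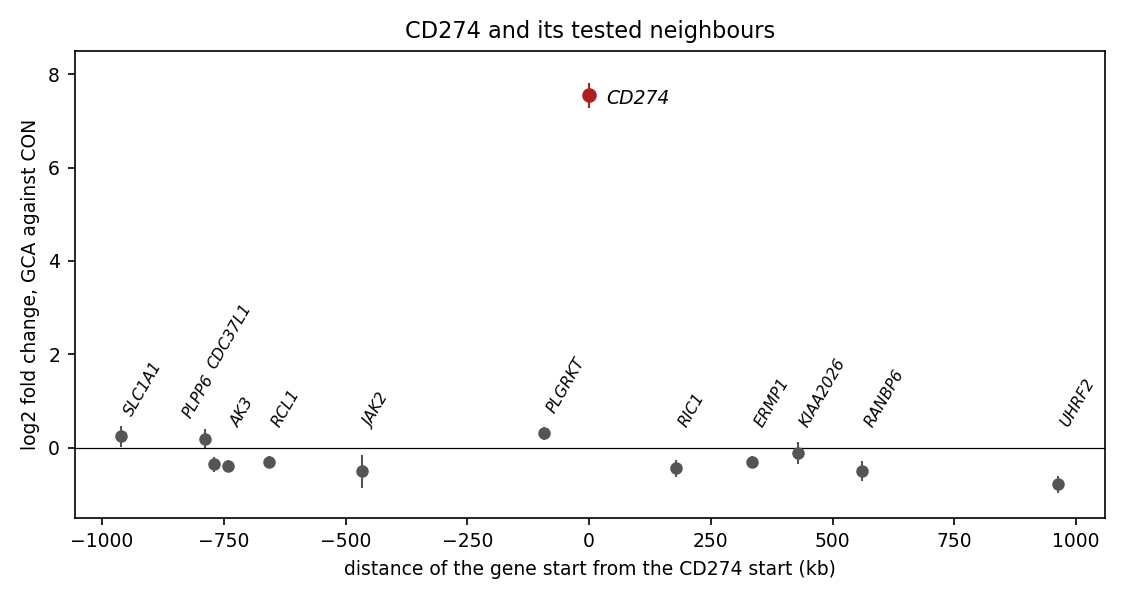
Log2 difference between GCA and CON, with its SE, for CD274 and its 12 fitted neighbours. The horizontal axis is the distance of each gene's start from that of CD274 in kb. Starts are the lowest coordinates of the genes, whatever the strand. CD274 stands alone at 7.55 and every neighbour lies between -0.78 and 0.31.

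The profile of CD274 over the 6 libraries, taken as log2 CPM centred on its mean, was closest to that of AQP3, a water and glycerol channel, at a Euclidean distance of 2.01. ZDHHC9 followed at 2.60, then SOX14, a transcription factor, at 2.74, SERPINA3, a serine protease inhibitor, at 2.98, and MIA, a small secreted protein, at 3.49. In all 5, as in CD274, GCA 1 was the lowest of the GCA libraries. For AQP3 the GCA counts were 7421, 10829 and 11363, and for SERPINA3 they were 284, 603 and 615. In CON 1 to 3 SOX14 had 6, 9 and 10 counts, SERPINA3 4, 14 and 18, and MIA 6, 10 and 11. SOX14, SERPINA3 and MIA passed the low-count filter only through their GCA libraries. The genes with profiles nearest to that of LGALS9 were HOXC4 at 0.255, RAET1G at 0.298, SYT8 at 0.502, ALOX15 at 0.546 and APOL1 at 0.585. Like LGALS9 they had few counts in CON, 18, 15 and 32 for HOXC4 and 2, 1 and 6 for APOL1. RAET1G, SYT8, ALOX15 and APOL1 also passed the low-count filter only through their GCA libraries. These distances describe likeness over 6 libraries of 2 groups, and genes with large differences between the groups are near each other by construction.

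**Figure D5:**
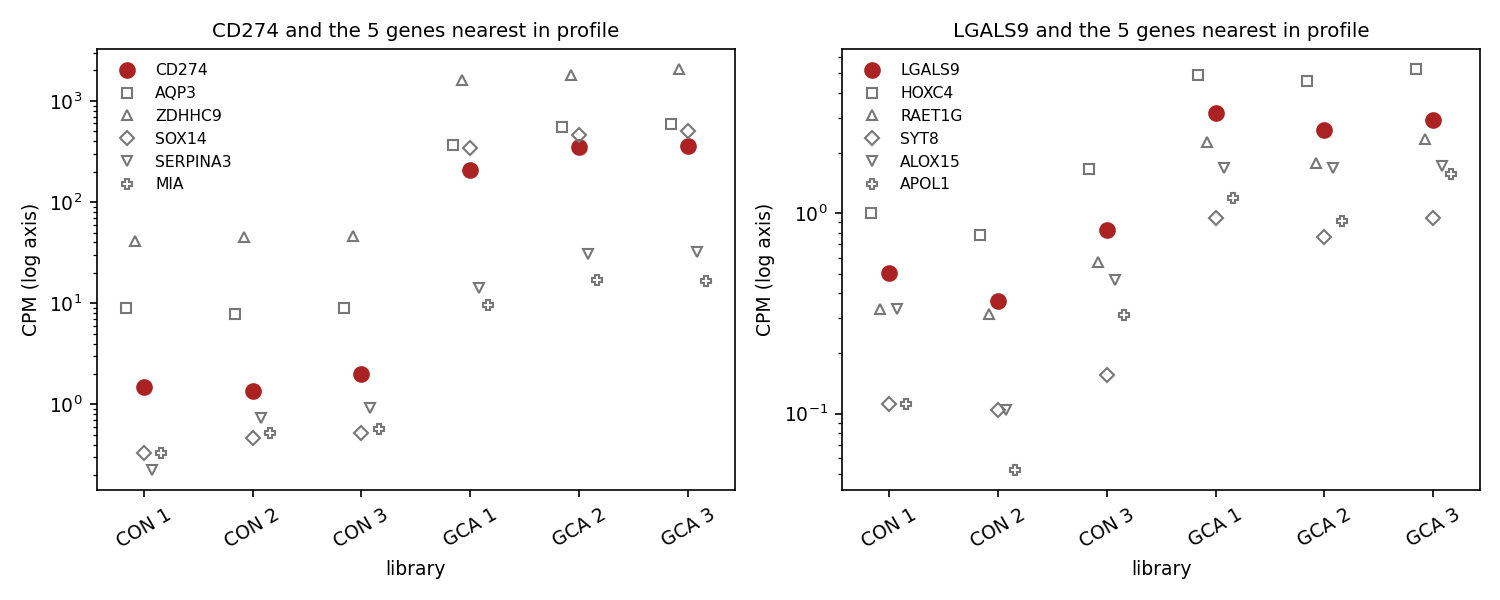
CPM on a log axis, not centred, of CD274 and LGALS9, each with the 5 genes of most similar profile, in the 6 libraries. Points are higher in the GCA than in the CON libraries, and GCA 1 is the lowest GCA library for CD274 and its 5 nearest genes.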

How the data were processed

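RNA was sequenced from 3 GCA and 3 CON libraries. The authors deposited 1 table of raw counts per gene and 1 table of FPKM. The submitters' processing notes name the build hg38 and the tools HTSeq 0.11.2, HISAT2 2.2.1.0 and fastp 0.20.1. The deposited FPKM equal the deposited count divided by the library total and 1 length per gene for 16229 of 16229 genes (relative tolerance 1e-09), so they are no independent measure. Per the labels, polyA RNA was the molecule and a total RNA kit with ribosomal depletion made the libraries.

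Counts were fitted with edgeR 4.0.16 (R 4.3.3): TMM scaling, filterByExpr (minimum count 10, minimum total 15), quasi-likelihood test, Benjamini-Hochberg adjustment and a threshold of 0.05. CPM use TMM-scaled library sizes, and FPKM served to compare levels between genes. Alternatives used DESeq2 1.42.0, limma 3.58.1 on log2(FPKM + 1) and log2(FPKM + 0.1), other scalings, no filter, GC and length offsets (splines with 4 degrees of freedom, GC content known for 97.4% of genes), left-out libraries and the replicate number as a block. Deviations from the group mean correlated positively between same-numbered libraries of the 2 groups (r = 0.206, 0.137 and 0.104). Differently numbered libraries gave -0.172 to 0.0954, so the lowest same-numbered value was hardly above the highest of the others. The main fit was unpaired, and the replicate number served as a block only in the alternatives. Whether the numbers mark pairs was not tested. Counting intervals cover counting error only.

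The members and lists were chosen with earlier results of these data known. Outside the members, the genes named were those past the threshold with an absolute log2 difference of at least 1, the 3 most abundant of each list by FPKM, IRF1, JAK2, PVR, PDCD1 and ZDHHC9, the fitted neighbours within 1 Mb of the CD274 start, and the 5 genes nearest in profile to CD274 and to the member with the next largest difference. A gene of the interferon-gamma list is not reported here and was left out of its counts. Gene positions, the neighbours of CD274 and the promoters were taken from RefSeq. GC content and the genes overlapping a member were taken from GENCODE on GRCh38.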

Additional observations from a re-analysis of the deposited data

How the results depend on the processing

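For the 8 fitted members, 107 of 136 values over 17 alternatives kept their direction and side of the threshold, 18 lost the call, 3 gained one and 8 changed sign. For 61 other named genes, 902 of 1037 values kept both, 97 lost the call, 27 gained one and 11 changed sign. Each value was counted once, and a change of sign was counted before a change of call. With the GC and length offsets CD276 and OTUB1 changed sign and also lost the call, and STUB1 changed sign and gained one. The cause of these changes was not tested. Of all genes 4584 were called, between 2621 (without GCA 3) and 6707 (without CON 1) on leaving out 1 library, 3029 without CON 2, and 7419 without the libraries numbered 1 of both groups. Members called numbered 5, between 3 and 6 without 1 library, and 3 and 3 in the limma fits to log2(FPKM + 1) and log2(FPKM + 0.1). The log2(FPKM + 1) scale, which understates changes of low genes, gave 5.78 for CD274 and 0.68 for LGALS9. Pathway genes called numbered 35, between 21 (without GCA 3) and 42 without 1 library. With the replicate block 5163 genes, 5 members and 4 neighbours of CD274 were called, in place of 2 neighbours, and among the named genes the block changed only the calls of RIC1 and RANBP6. Neighbours called numbered 4 with offsets and block together, 6 without the libraries numbered 1, and 1 to 6 without 1 library.

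With the GC and length offsets, first without and then with the block, the log2 difference changed sign to 0.14 and 0.14 for CMTM6, -0.062 and -0.064 for CD276, -0.089 and -0.11 for SOCS3, -0.11 and -0.11 for RELA, -0.34 and -0.34 for STUB1 and 0.20 and 0.17 for KIAA2026. OTUB1 stood at -0.0091 with the offsets alone. CD47 ranged from -0.087 (without CON 1) to 0.24 without 1 library, with -0.047 without GCA 2, and stood at -0.0008 without the libraries numbered 1, as did PLPP6 at -0.0009. On leaving out 1 library, ICOSLG ranged from -0.31 to 0.16 (without CON 2) and KIAA2026 from -0.24 to 0.082 (without GCA 3). Genes at or near 3 counts per library, such as TNFRSF14 and PDCD1, could not be compared at this depth.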
